A study of Homo sapiens with 32 samples.

Results

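ANKRD1 and 8 further genes tied to the YAP and TEAD transcription factors (CYR61, CTGF, AMOTL2, AJUBA, LATS2, AXL, TEAD1 and YAP1) were followed by RNA sequencing in 4 cell lines of endometrial cancer, in 32 libraries. They are 9 of the 35238 genes listed and of the 17011 genes tested. ANKRD1 was selected on its measured values, a higher level with paclitaxel than with vehicle in the line SNGM, and the others are named partners or targets of the same pathway, each taken by its gene symbol. The question asked was whether the other genes followed ANKRD1 in each line and with each drug. The 9 genes did not all move one way: with the drug SM08502, ANKRD1 and CTGF rose in 3 and 2 lines, AXL fell in all 4, and YAP1 was called in none.

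Each line was treated for 24 h with vehicle (0.1% DMSO), with paclitaxel, with SM08502 or with the combination, and each of the 16 groups held 2 replicates, plated as duplicate wells. Paclitaxel, a taxane, binds and stabilises microtubules. SM08502 inhibits CDC-like kinases, enzymes that phosphorylate splicing proteins. Ishikawa is labelled CTNNB1-wildtype, and Ishikawa-S33Y, SNGM and HEC265 are labelled CTNNB1-mutated, CTNNB1 being the gene of beta-catenin. Each line received its own dose, the IC50 for its viability: 5.6 nM paclitaxel and 149 nM SM08502 for HEC265, 11.7 and 350.7 nM for SNGM, 11 and 80 nM for Ishikawa, and 6 and 85 nM for Ishikawa-S33Y. Dose therefore cannot be told apart from line. RNA input was 350 ng per library in Ishikawa and 500 ng in the other lines and cannot be told apart from line either.

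YAP, the protein of YAP1, and its relative TAZ are transcriptional coactivators that do not bind DNA themselves and act through the TEAD family, of which TEAD1 is a member. The Hippo kinases LATS1 and LATS2 phosphorylate YAP and keep it in the cytoplasm, and cell spreading, tension on the actin cytoskeleton and low cell density favour its entry into the nucleus. ANKRD1, CTGF and CYR61 are widely used readouts of YAP activity, and LATS2 and AMOTL2 are both targets and inhibitors of YAP and so form feedback loops.

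The DNA element to which TEAD factors bind contains GGAATG, read as CATTCC on the other strand. The 250 bases before the transcription start of 7 of the 9 genes were found in the RefSeq promoter table (GRCh38.p14), and CYR61 and TEAD1 were not in it. The windows of ANKRD1 and CTGF are shown because both genes rose with SM08502 in Ishikawa-S33Y and SNGM, and that of AXL because it fell in every line. Each is written 5′ to 3′ along the gene's own strand, with GGAATG or CATTCC in capitals.
ANKRD1: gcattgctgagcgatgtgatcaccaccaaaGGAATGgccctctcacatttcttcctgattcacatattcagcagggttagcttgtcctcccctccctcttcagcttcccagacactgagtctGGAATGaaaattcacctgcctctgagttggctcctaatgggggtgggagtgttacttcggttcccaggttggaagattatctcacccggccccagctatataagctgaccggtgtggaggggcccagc
CTGF: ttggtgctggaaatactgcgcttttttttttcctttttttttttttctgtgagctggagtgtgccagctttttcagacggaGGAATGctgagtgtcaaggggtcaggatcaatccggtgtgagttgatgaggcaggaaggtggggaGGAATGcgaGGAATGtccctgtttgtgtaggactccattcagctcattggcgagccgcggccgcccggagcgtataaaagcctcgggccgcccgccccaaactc
AXL: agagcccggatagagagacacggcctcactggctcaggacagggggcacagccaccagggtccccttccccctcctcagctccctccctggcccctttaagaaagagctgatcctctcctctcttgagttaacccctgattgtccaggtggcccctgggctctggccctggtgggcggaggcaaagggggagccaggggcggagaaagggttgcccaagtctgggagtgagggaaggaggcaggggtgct
The ANKRD1 window lies at chr10:90921088-90921337 on the minus strand and holds 2 copies of GGAATG, which begin 220 and 128 bases before the start. The CTGF window, at chr6:131951373-131951622 on the minus strand, holds 3 copies, at 169, 104 and 95 bases. The AXL window of the first annotated start, at chr19:41218973-41219222 on the plus strand, holds neither word, and the window of a second annotated AXL start has CATTCC at 212 bases. Among the others, 1 copy was found in the window of YAP1 (GGAATG at 162 bases) and in those of the second starts of AMOTL2 (CATTCC at 69 bases) and AJUBA (GGAATG at 59 bases), and none in LATS2. Of all 35116 promoter windows of this length, 11.9% hold at least 1 copy on either strand, 0.928% hold at least 2 and 0.0797% at least 3. These words are matches in a reference sequence. Binding was not measured, and any link between the words and the changes with drug was not tested.

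In the gene annotation ANKRD1 spans chr10:90912096-90921087, CTGF (current symbol CCN2) chr6:131948176-131951372, CYR61 (CCN1) chr1:85580761-85583950 and AXL chr19:41219223-41261766. AMOTL2 spans chr3:134355345-134375417, AJUBA chr14:22971177-22982551, LATS2 chr13:20973036-21061586, TEAD1 chr11:12674421-12944737 and YAP1 chr11:102110447-102233424. CTGF and TEAD1 overlap antisense RNA genes, CCN2-AS1 and TEAD1-AS1, and YAP1 has 3 annotated pseudogenes, so reads of these partners could be counted with them. The strand used in counting is not given in the sources used here.

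Depth was 13.03 to 34.1 M reads (M, 1000000) in 30 libraries. It was 2.99 M in replicate 2 of the combination in Ishikawa-S33Y and 1.61 M in that of SNGM, where 3 reads equal 1.87 CPM (reads per M counted). All 7 epithelial markers had a median above 1 CPM in every line, and summed to between 993 and 3581 CPM in single libraries. Their sum was lower with SM08502 and with the combination in the Ishikawa lines and in HEC265. In Ishikawa-S33Y the sum was 3581 and 3510 CPM with vehicle, 2057 and 1835 with SM08502 and 1578 and 1495 with the combination, and 4 and 6 of the 7 were called lower. In Ishikawa it was 1604 and 1534 with vehicle, 1274 and 1154 with SM08502 and 1187 and 1133 with the combination, with 4 of 7 called lower each time. In HEC265 it was 2725 and 2715 with vehicle, 2371 and 2505 with SM08502 and 2446 and 2261 with the combination. There 1 of 7 was called lower with SM08502 (14.3%, near the share of all genes). With the combination 1 was called higher and 2 lower in HEC265. In SNGM 0 were called with SM08502, and 1 higher and 1 lower with the combination. The shares of all genes called with SM08502 and with the combination were 29.1% and 42.0% in Ishikawa-S33Y and 15.2% and 22.8% in Ishikawa. They were 14.7% and 19.5% in HEC265 and 7.86% and 18.4% in SNGM. In Ishikawa, 2 of the 7 markers had a log2 difference above 0 each time. The part of the markers in the changes of the 9 genes was not tested. The 7 stromal markers summed to 715 to 1166 CPM in Ishikawa-S33Y, of which nearly all was COL1A1, to 32.5 to 197 in Ishikawa and to at most 10.2 in the other lines; LUM was at most 0.31 CPM anywhere. A score for transcript length compares 36 genes that have very long transcripts with 80 genes of ribosomal proteins (mean log2 level, long minus ribosomal). It was -1.35 and -2.98 in the paclitaxel replicates of Ishikawa and -2.07 and -2.94 in its SM08502 replicates, against -1.64 to 0.20 in all libraries of the other lines. Levels are given in CPM, and changes as differences of log2(CPM + 1), tested with limma over all 17011 genes. A gene is called at an adjusted p under 0.05. A lack of overlap between 2 groups of 2 libraries is only a description, and its share over all genes is not given here. The p-values measure the spread between duplicate wells, which may be technical. That spread is 1 value per gene, shared by all 16 groups, and not the spread within the line compared. Replicates lay 0.12 to 0.58 apart (log2, quadratic mean) in the groups of Ishikawa and 0.19 to 0.46 in SNGM. They lay 0.09 to 0.27 apart in Ishikawa-S33Y and 0.08 to 0.13 in HEC265. With SM08502, fitting a line alone lowered the count of the 9 genes called in Ishikawa and raised it in HEC265, as given below. In bulk RNA, fewer cells of a kind and less RNA per cell cannot be told apart.

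With vehicle, the levels of most of the 9 genes differed between lines. ANKRD1, a nuclear and sarcomeric ankyrin-repeat protein, measured 23.6 and 16.9 CPM in Ishikawa, 16.9 and 18.2 in HEC265, 9.76 and 9.68 in Ishikawa-S33Y, and 9.0 and 8.26 in SNGM. Its levels in Ishikawa and HEC265 overlapped, and both were above the levels in Ishikawa-S33Y and SNGM. The SNGM vehicle values are among those on which ANKRD1 was chosen. CTGF, a secreted matricellular protein, measured 135 and 137 CPM in HEC265, 90.0 and 89.2 in Ishikawa, 56.0 and 51.8 in Ishikawa-S33Y, and 19.2 and 16.1 in SNGM. No pair of lines overlapped for CTGF, and each of the 6 differences between lines was called, although that between HEC265 and Ishikawa (0.60) was 0.02 and not called with the length score as a covariate (adjusted p = 0.946). AXL, a receptor tyrosine kinase, ran in another order, with 189 and 185 CPM in HEC265, 92.9 and 87.9 in SNGM, 45.3 and 42.7 in Ishikawa-S33Y, and 19.3 and 20.6 in Ishikawa. Each of its 6 differences was called too, and the difference between HEC265 and Ishikawa was 3.17 ± 0.18 (log2, SE; adjusted p = 1.52e-12).

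**Figure D1:**
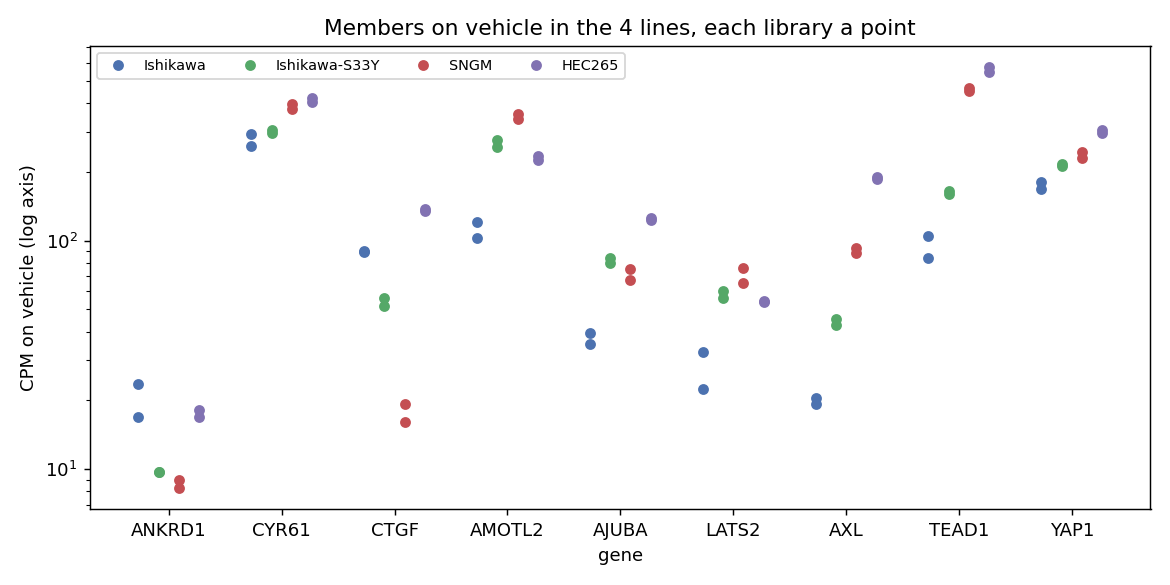
Level of each of the 9 genes with vehicle, in CPM on a log axis, with 1 point per library and 1 colour per line. AXL and TEAD1 are lowest in Ishikawa and highest in HEC265, whereas CTGF is lowest in SNGM, at 19.2 and 16.1 CPM.

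Of the remaining genes, CYR61, a secreted relative of CTGF, was at 258 to 306 CPM in both Ishikawa lines and 377 to 422 CPM in SNGM and HEC265. Neither pair within those ranges was called. YAP1 was lowest in Ishikawa, at 169 and 181 CPM, and highest in HEC265, at 305 and 296 CPM. TEAD1 was at 84.3 and 105 CPM in Ishikawa and 165 and 160 in Ishikawa-S33Y, and at 452 and 463 in SNGM and 575 and 547 in HEC265, a pair that was not called (adjusted p = 0.283). AJUBA, a LIM-domain adaptor that binds LATS kinases, was at 39.5 and 35.4 CPM in Ishikawa and 67.3 to 126 CPM elsewhere, with no call between SNGM and Ishikawa-S33Y. AMOTL2, an angiomotin that holds YAP at junctions, was at 103 and 121 CPM in Ishikawa and 226 to 357 CPM elsewhere, where only the difference between HEC265 and SNGM was called, and not when any of those 4 libraries was left out. LATS2 was at 22.4 and 32.5 CPM in Ishikawa and 53.7 to 75.7 CPM in the other lines, where no difference was called, although both HEC265 libraries lay below those of SNGM and Ishikawa-S33Y.

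Over the 6 pairs of lines, 41 of 54 differences of the 9 genes were called. The counts were 7 of 9 for Ishikawa-S33Y against Ishikawa (48.3% of all genes tested), 9 for SNGM against Ishikawa (66.8%), 8 for HEC265 against Ishikawa (63.3%), 4 for SNGM against Ishikawa-S33Y (60.8%), 7 for HEC265 against Ishikawa-S33Y (58.0%) and 6 for HEC265 against SNGM (54.9%). Between Ishikawa-S33Y and Ishikawa, ANKRD1 fell by 0.97 (SE 0.16, adjusted p = 2.92e-05) and CTGF fell by 0.72 (SE 0.16, adjusted p = 6.05e-04), while AMOTL2, AJUBA, AXL, LATS2 and TEAD1 were higher by 1.25, 1.11, 1.10, 1.07 and 0.78. The length score was -2.63 and -2.16 in the vehicle libraries of Ishikawa and between -1.64 and -1.0 in all libraries of Ishikawa-S33Y. With this score as a covariate, the calls of LATS2 (0.11, adjusted p = 0.719) and TEAD1 (0.07, adjusted p = 0.794) were lost, and they were also lost without replicate 1 of the Ishikawa vehicle (0.82 and 0.63). Against Ishikawa the covariate also ended 5 of the 9 calls in SNGM (CYR61, AMOTL2, AJUBA, LATS2 and YAP1) and 5 of the 8 in HEC265 (CYR61, CTGF, AMOTL2, LATS2 and YAP1). Among the other 3 pairs it ended 1 call, that of CYR61 between SNGM and Ishikawa-S33Y. ANKRD1, AXL and, outside Ishikawa-S33Y against Ishikawa, TEAD1 kept each of their calls. The calls of ANKRD1 in pairs with SNGM, however, rest on vehicle libraries that were used to choose that gene. Relative to Ishikawa, the median over all genes was -0.13 in SNGM and -0.17 in HEC265.

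No change of the 9 genes with paclitaxel alone was called in the lines other than SNGM, and the rise of ANKRD1 in SNGM is the pattern on which the gene was chosen. In SNGM, ANKRD1 was 9.0 and 8.26 CPM with vehicle and 16.2 and 19.0 CPM with paclitaxel, a difference of 0.94 that ranged from 0.84 to 1.05 over all alternatives. It is a description with no test, as are the values of the rest of the 9 genes in that contrast. In the same libraries CTGF was 19.2 and 16.1 with vehicle and 24.8 and 25.0 with paclitaxel (0.48), and AXL was 92.9 and 87.9 against 74.4 and 77.4 (-0.25). Neither CTGF nor AXL overlapped between the groups. The other 6 genes differed by -0.05 to 0.06, so the pattern of ANKRD1 was not shared by most of them. The share of all genes called in this contrast was 0.0176%.

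Outside SNGM, no member was called with paclitaxel by limma or by limma voom. ANKRD1 was 18.5 and 18.3 CPM in Ishikawa, against 23.6 and 16.9 with vehicle, and the groups overlapped. In Ishikawa-S33Y it was 10.4 and 11.8 against 9.76 and 9.68 (0.17), and in HEC265 it was 21.8 and 19.3 against 16.9 and 18.2 (0.21). In both lines the treated libraries were the higher ones, by less than the test could call. The background was 0.0118% of genes in Ishikawa, 0.00588% in HEC265 and 0% in Ishikawa-S33Y. Unadjusted p-values were under 0.05 for 4, 0 and 0 of the 9 genes and for 1254, 158 and 122 of all genes. In Ishikawa the log2 difference of all 9 genes was below 0, from -0.01 for TEAD1, whose mean CPM was 1.03 times that of vehicle, to -0.51 for AXL and -0.56 for CTGF, and replicate 2, the library with a length score of -2.98, was the lower for each of the 9. With that library standing alone (without paclitaxel replicate 1), 5 of the 9 genes were called. With the length score as a covariate, 2 of the 9 were called.

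SM08502 raised ANKRD1 in 3 lines. It was 43.9 and 43.7 CPM in Ishikawa against 23.6 and 16.9 with vehicle, a change of 1.09 ± 0.16 (log2, SE; adjusted p = 8.26e-05; with the Ishikawa libraries fitted alone, adjusted p = 0.0674). It was 24.2 and 26.7 against 9.76 and 9.68 in Ishikawa-S33Y (1.30 ± 0.16, adjusted p = 4.37e-06), 2.62 times the vehicle mean in CPM. It was 14.6 and 14.9 against 9.0 and 8.26 in SNGM (0.71 ± 0.16, adjusted p = 0.00591). The treated and vehicle libraries did not overlap in these lines. In HEC265 the values went the other way, 14.1 and 13.8 against 16.9 and 18.2, and the change of -0.31 ± 0.16 was not called (adjusted p = 0.206). The response of ANKRD1 differed among the 4 lines (moderated F test of limma, adjusted p = 2.85e-04), in a test that includes the SNGM vehicle libraries. The SNGM comparison shares its vehicle libraries with the paclitaxel contrast on which ANKRD1 was chosen, and its call was lost without vehicle replicate 2 (0.65, adjusted p = 0.0675) or SM08502 replicate 1 (0.72, adjusted p = 0.0519), and with the SNGM libraries fitted alone (adjusted p = 0.154).

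**Figure D2:**
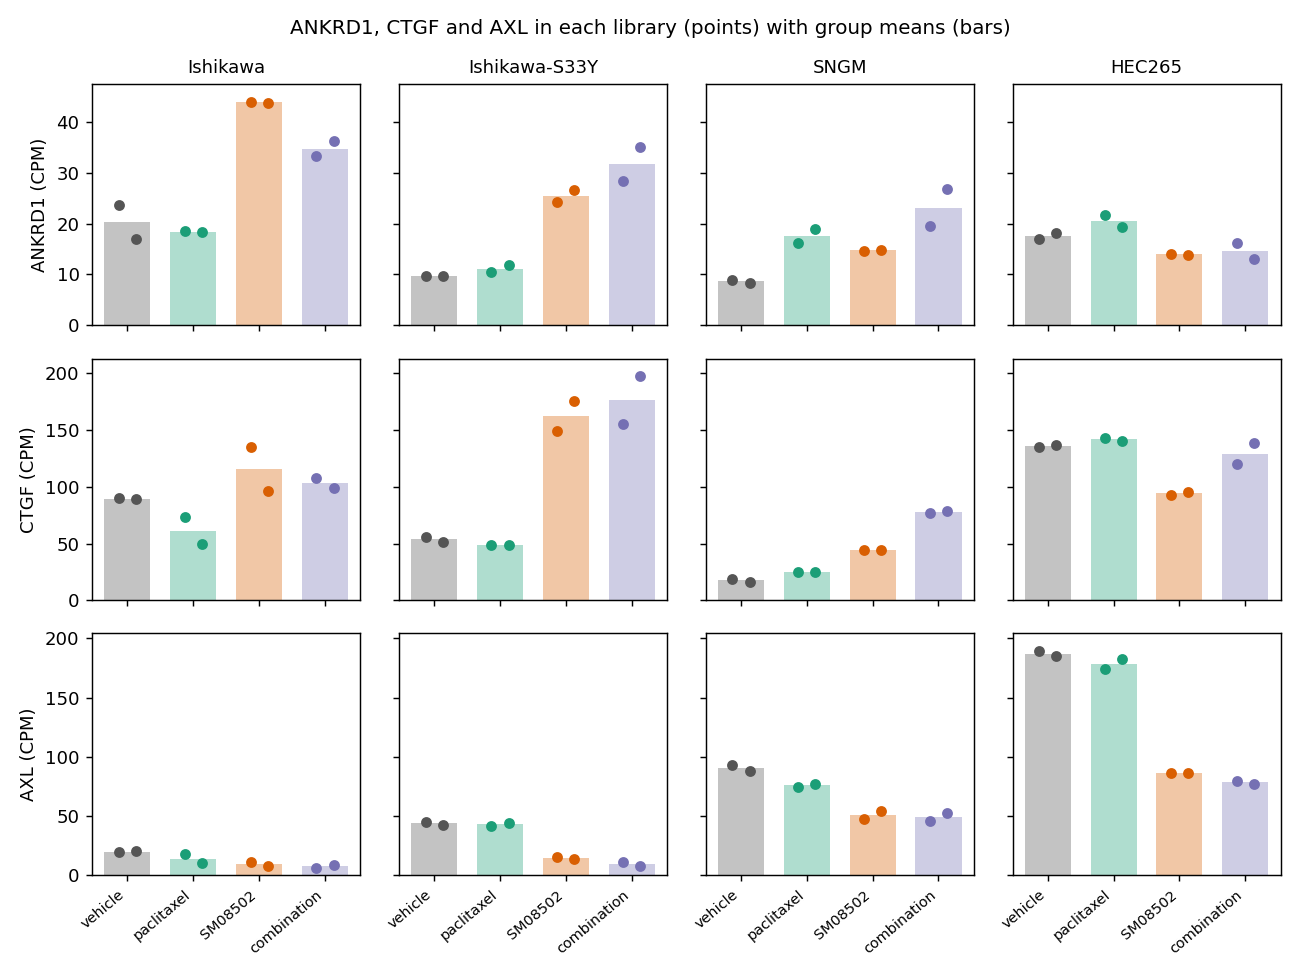
CPM of ANKRD1, CTGF and AXL in each library (points) with group means (bars), by line and treatment, each gene on its own axis from 0. In Ishikawa-S33Y the points of SM08502 and the combination lie above those of vehicle for ANKRD1 and CTGF, and between 8.02 and 15.5 CPM, below vehicle, for AXL.

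CTGF rose with SM08502 in Ishikawa-S33Y and SNGM and fell in HEC265. It was 149 and 176 CPM in Ishikawa-S33Y against 56.0 and 51.8 with vehicle (1.57 ± 0.16, adjusted p = 5.57e-07). In SNGM it was 43.9 and 44.7 against 19.2 and 16.1 (1.28 ± 0.16, adjusted p = 2.53e-05). In both lines the change was larger than that of ANKRD1 on this scale, and the groups were far apart. In HEC265, CTGF was 92.7 and 95.8 against 135 and 137 (-0.53 ± 0.16, adjusted p = 0.0251), and the call was lost when any of the 4 libraries was left out, with adjusted p from 0.107 to 0.141. In Ishikawa it was 135 and 96.1 against 90.0 and 89.2, a change of 0.34 that was not called (adjusted p = 0.144). The responses differed among lines (adjusted p = 1.58e-05).

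AXL fell with SM08502 in every line. It went from 19.3 and 20.6 CPM to 11.0 and 8.15 in Ishikawa (-0.999 ± 0.18, adjusted p = 9.67e-04). It went from 45.3 and 42.7 to 15.5 and 13.6 in Ishikawa-S33Y (-1.54 ± 0.18, adjusted p = 4.28e-06). In SNGM it went from 92.9 and 87.9 to 47.8 and 53.9 (-0.82 ± 0.18, adjusted p = 0.00675), and in HEC265 from 189 and 185 to 86.3 and 86.4 (-1.11 ± 0.18, adjusted p = 2.93e-04). Treated and vehicle libraries did not overlap in any line, although vehicle levels of the lines spanned 19.3 to 189 CPM. The Ishikawa call was lost with its libraries fitted alone (adjusted p = 0.147). The SNGM call was lost without vehicle replicate 1 (adjusted p = 0.0645) or SM08502 replicate 1 (adjusted p = 0.0952). A difference among the 4 lines was not called (adjusted p = 0.210).

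Of the inhibitors and adaptors, AJUBA fell in Ishikawa, from 39.5 and 35.4 to 26.4 and 17.9 CPM (-0.75 ± 0.16, adjusted p = 0.00239), and in HEC265, from 126 and 124 to 87.3 and 84.6 (-0.53 ± 0.16, adjusted p = 0.0236). It stayed at 75.3 and 71.1 against 84.0 and 79.5 in Ishikawa-S33Y and at 78.7 and 73.1 against 75.5 and 67.3 in SNGM, neither called. The difference among lines was called (adjusted p = 0.0411). The Ishikawa call was lost without SM08502 replicate 2 (adjusted p = 0.0835), the library with a length score of -2.94, and the HEC265 call when any of its 4 libraries was left out (adjusted p 0.0989 to 0.140). LATS2 was 82.5 and 83.3 CPM against 60 and 56.0 in Ishikawa-S33Y, without overlap and without a call (0.51). Its replicates were apart in Ishikawa, at 30.4 and 14.8. AMOTL2 was 481 and 446 against 342 and 357 in SNGM (0.41) and 103 and 52.9 against 103 and 121 in Ishikawa (-0.59), and neither was called.

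The secreted CYR61 and the factors TEAD1 and YAP1 were called in no line with SM08502. CYR61 differed by -0.27 to -0.04 over the 4 lines with SM08502 and was not called in any, at 350 to 408 CPM in SNGM against 377 and 397 with vehicle. YAP1 differed by -0.24 to 0.06, and its 8 SM08502 libraries ranged from 135 to 259 CPM, against 169 to 305 with vehicle. TEAD1 was 225 and 236 CPM against 165 and 160 in Ishikawa-S33Y (0.50) and 386 and 390 against 575 and 547 in HEC265 (-0.53). These TEAD1 groups did not overlap, in opposite directions in the 2 lines, and neither change was called (lowest adjusted p over the lines 0.0949).

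**Figure D3:**
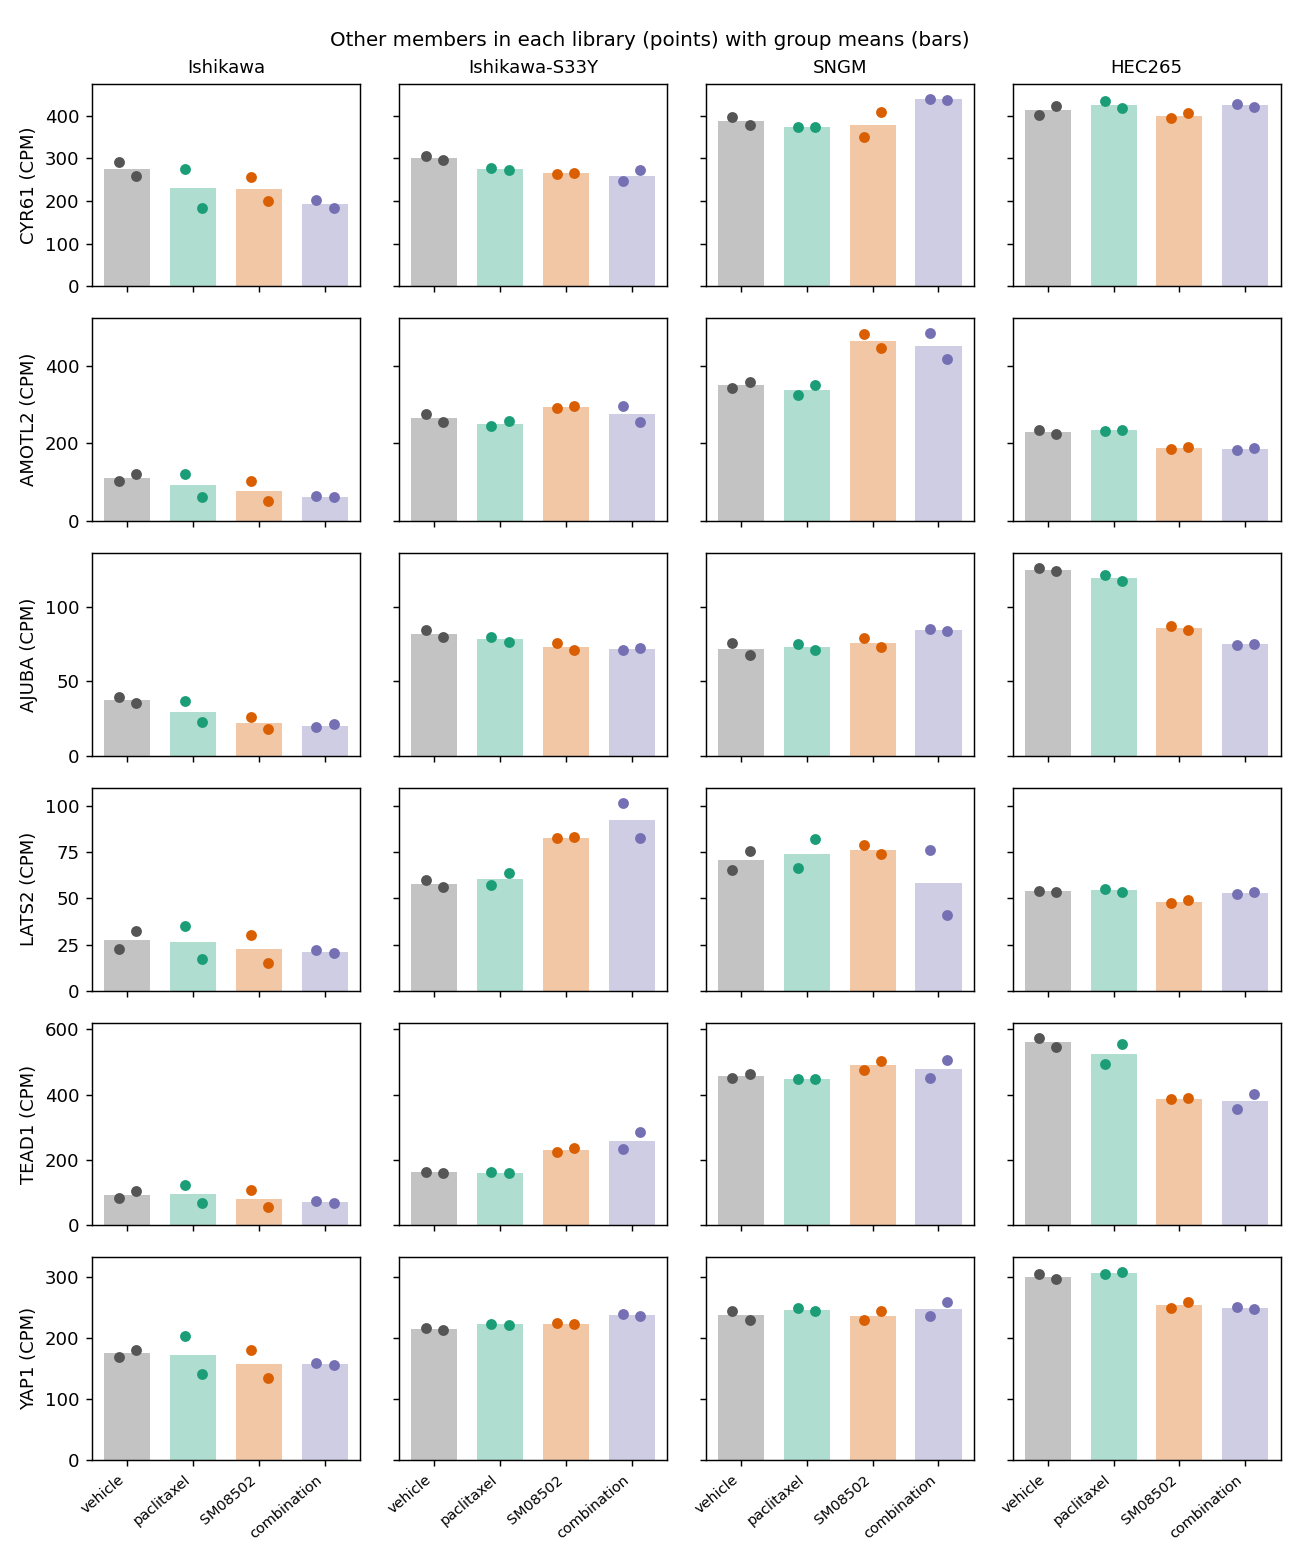
CPM of CYR61, AMOTL2, AJUBA, LATS2, TEAD1 and YAP1 in each library (points) with group means (bars), by line and treatment, each gene on its own axis from 0. In Ishikawa the second point of SM08502 lies below the first for all 6 genes, as for LATS2 at 30.4 and 14.8 CPM.

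In all, 3 of the 9 genes were called with SM08502 in each line. The background, the share of all genes called, was 7.86% in SNGM, 14.7% in HEC265, 15.2% in Ishikawa and 29.1% in Ishikawa-S33Y. The called genes were 2 higher and 1 lower in each of SNGM and Ishikawa-S33Y, 1 higher and 2 lower in Ishikawa, and 0 higher and 3 lower in HEC265. The median change of the 9 genes was 0.10 in SNGM, -0.31 in HEC265, -0.28 in Ishikawa and 0.14 in Ishikawa-S33Y, beside medians over all genes of 0.00, 0.07, 0.00 and 0.11. Fitted on the libraries of 1 line alone, the counts were 2, 7, 0 and 6 in that order. They were 6 in Ishikawa without SM08502 replicate 1, 1 in SNGM without SM08502 replicate 1 and 1 in HEC265 when any of its 4 libraries was left out. The test of a difference among lines called 3 of the 9 genes, against 12.4% of all genes.

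With the combination, ANKRD1 was 33.2 and 36.1 CPM in Ishikawa (0.76 ± 0.16 against vehicle, adjusted p = 0.00148), a value that was no longer called without vehicle replicate 2 (0.53, adjusted p = 0.0522). It was 28.4 and 35.1 in Ishikawa-S33Y (1.60 ± 0.16, adjusted p = 1.16e-07) and 19.4 and 26.8 in SNGM (1.31 ± 0.16, adjusted p = 1.18e-05). The SNGM vehicle libraries are also those on which ANKRD1 was chosen, so the SNGM p-value is not free of that choice. HEC265 again stood apart, at 16.1 and 12.9 CPM (-0.26, adjusted p = 0.267). CTGF was 155 and 197 CPM in Ishikawa-S33Y (1.68 ± 0.16, adjusted p = 6.89e-08), and it was 76.6 and 79.0 in SNGM (2.08 ± 0.16, adjusted p = 6.47e-08), 4.40 times the vehicle mean. It was 108 and 98.8 in Ishikawa and 120 and 138 in HEC265, with no call in either. All libraries of the combination in SNGM and Ishikawa-S33Y lay above the vehicle libraries for both genes.

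AXL fell with the combination in every line, with adjusted p of at most 0.00242. It measured 11.4 and 8.02 CPM in Ishikawa-S33Y (-2.09 ± 0.18) and 6.17 and 8.81 in Ishikawa (-1.32 ± 0.18). HEC265 held 80.0 and 77.3 (-1.24 ± 0.18) and SNGM 45.5 and 52.9 (-0.87 ± 0.18). The difference among lines was called (adjusted p = 0.00873), where with SM08502 alone its adjusted p was 0.210. AJUBA fell in Ishikawa, to 19.1 and 21.1 CPM (-0.86, adjusted p = 5.16e-04), and in HEC265, to 74.3 and 75.2 CPM (-0.73, adjusted p = 0.00190). In Ishikawa CYR61 was 202 and 183 CPM (-0.51, adjusted p = 0.0106) and AMOTL2 was 64.5 and 61.3 (-0.82, adjusted p = 0.0122), calls that were lost without 2 and 3 of the 4 libraries, respectively. TEAD1 was 234 and 287 CPM in Ishikawa-S33Y (0.67, adjusted p = 0.0194), and this call was lost without the shallow replicate 2 (0.52, adjusted p = 0.155) and without either vehicle library. LATS2 and YAP1 were called in no line.

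With the combination 2 of 9 genes were called in HEC265 (background 19.5%), 3 in SNGM (18.4%), 5 in Ishikawa (22.8%) and 4 in Ishikawa-S33Y (42.0%). Fitted on its own libraries alone, Ishikawa had 0. Without the shallow combination libraries the counts were 3 in Ishikawa-S33Y and 3 in SNGM. The difference among lines was called for 7 of the 9 genes, all but LATS2 and YAP1, against 27.1% of all genes. The comparisons of paclitaxel, SM08502 and the combination with vehicle share the vehicle libraries of each line, so their values for a gene are not independent.

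**Figure D4:**
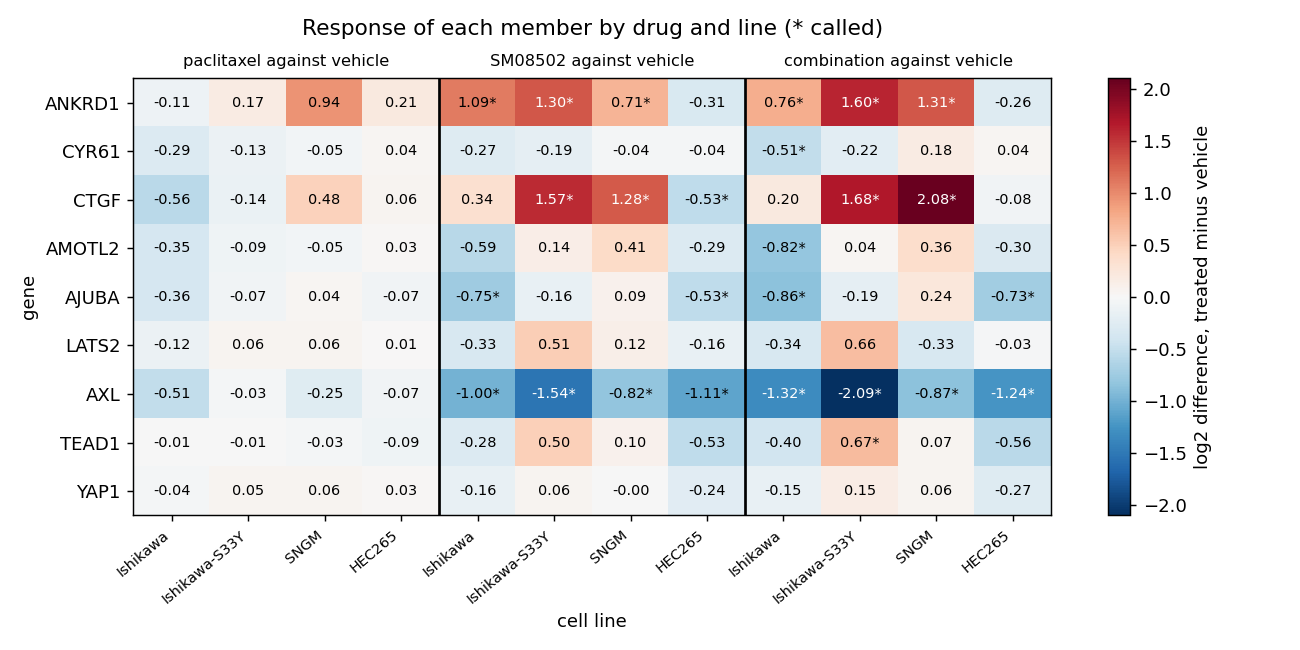
Change of each of the 9 genes against vehicle (log2 difference) for each drug and line, red higher and blue lower, with an asterisk where the gene was called by limma; the SNGM paclitaxel column has no test. The row of AXL is blue with SM08502 and the combination in every line, and the rows of ANKRD1 and CTGF are red with SM08502 and the combination in Ishikawa-S33Y and SNGM.

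The combination was also compared with SM08502 alone, and the means of these groups use no library on which ANKRD1 was chosen. The spread behind the SE and the p-value was estimated over all 32 libraries, which include those libraries. In SNGM, ANKRD1 was 19.4 and 26.8 CPM with the combination against 14.6 and 14.9 with SM08502, without overlap, and the difference of 0.60 ± 0.16 was not called (adjusted p = 0.0916). It rests partly on replicate 2 of the combination, where 43 reads were counted: without that library it was 0.38, and without replicate 1 it was 0.82 and called (adjusted p = 0.00117), the adjusted p over all alternatives running from 0.00117 to 0.792. CTGF was 76.6 and 79.0 against 43.9 and 44.7 in SNGM (0.80 ± 0.16) and was called (adjusted p = 0.0341), the sole member to be so. That call was lost without combination replicate 2 (0.78, adjusted p = 0.402) or either SM08502 library (adjusted p = 0.124 and 0.414), and with limma voom (adjusted p = 0.0828), the value being 0.78 to 0.81 in these settings and 0.74 to 0.85 over all alternatives. The background was 0.253% of genes in SNGM.

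In the other lines no member was called between the combination and SM08502 by limma or limma voom, and 1 of the 9 genes had an unadjusted p under 0.05 in each. The background was 0.00588% in HEC265, 0% in Ishikawa and 0.129% in Ishikawa-S33Y. Unadjusted p-values were under 0.05 for 237, 308 and 2088 of all genes. ANKRD1 was 33.2 and 36.1 against 43.9 and 43.7 CPM in Ishikawa, lower with the combination, and 28.4 and 35.1 against 24.2 and 26.7 in Ishikawa-S33Y, higher with the combination. AXL was 11.4 and 8.02 against 15.5 and 13.6 in Ishikawa-S33Y (-0.55, adjusted p = 0.195). CTGF was 120 and 138 against 92.7 and 95.8 in HEC265 (0.45).

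Other genes of the pathway were taken from lists of textbook targets and components. Of 16 other YAP and TEAD targets, SM08502 raised 0 and lowered 3 in SNGM (list median -0.24), 0 and 5 in HEC265 (-0.35), 1 and 6 in Ishikawa (-0.37), and 2 and 6 in Ishikawa-S33Y (-0.06), beside the medians over all genes given above. The shares of all genes called, in either direction, were 7.86% in SNGM, 14.7% in HEC265, 15.2% in Ishikawa and 29.1% in Ishikawa-S33Y, and they are the background of all list counts with SM08502 here. IGFBP3, which binds insulin-like growth factors, went from 295 ± 27 to 132 ± 0.31 CPM in Ishikawa (SD, n = 2), fell also in Ishikawa-S33Y (-1.48) and SNGM (-1.19), and changed by 0.00 in HEC265. F3, tissue factor, fell by 1.87 in HEC265, 1.38 in Ishikawa-S33Y and 0.80 in Ishikawa. The targets that rose were DOCK5 in Ishikawa (0.46) and, in Ishikawa-S33Y, the stress gene GADD45A (0.94) and NT5E, an ecto-nucleotidase (0.70). FJX1 fell by 1.37 in Ishikawa and CRIM1 by 0.98 in HEC265. With 1 library left out, the targets called lower numbered 1 to 2 in SNGM, 2 in HEC265, 3 to 6 in Ishikawa-S33Y and 3 to 9 in Ishikawa.

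Of 7 genes for TAZ, the other TEAD factors and the VGLL cofactors, which compete with YAP for TEAD, SM08502 lowered 1 and raised 0 in SNGM, 3 and 1 in HEC265, 3 and 0 in Ishikawa, and 2 and 0 in Ishikawa-S33Y. With 1 library left out the number lowered was 1 in SNGM, 1 to 2 in HEC265, 1 to 2 in Ishikawa-S33Y and 1 to 4 in Ishikawa. TEAD2 fell in each line, by 0.51 in HEC265 and by 0.63 to 0.69 elsewhere. WWTR1, the gene of TAZ, fell by 0.55 in HEC265, where VGLL1 fell by 1.02 and VGLL4 rose by 0.59. Of 18 Hippo kinases and adaptors, 0 were called in SNGM, 1 rose in HEC265, 2 fell in Ishikawa (WWC2 and AMOT), and 3 rose and 1 fell in Ishikawa-S33Y. These are 0%, 5.56%, 11.1% and 22.2% of the list, below the shares of all genes in each line, so they are no result about the list. With 1 library left out, 0 were called in HEC265 and 0 to 7 were lower in Ishikawa, the 7 without SM08502 replicate 1. No gene of this list had an unadjusted p under 0.05 in SNGM, nor was any called by limma voom. In Ishikawa-S33Y the YAP kinase gene LATS1 rose by 0.82 and MAP4K4 fell by 1.03.

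Of 15 targets of SRF and its coactivator MRTF, which answer to the actin cytoskeleton and share targets with YAP, 13 fell and 0 rose with SM08502 in Ishikawa. ACTA2, smooth muscle actin, went from 50.3 ± 7.52 to 8.28 ± 0.96 CPM (SD, n = 2; -2.46, adjusted p = 8.24e-06), and TAGLN, an actin-binding protein, from 292 ± 2.61 to 129 ± 13.5 CPM (-1.17). The count was 4 without SM08502 replicate 2, 7 without vehicle replicate 1, 2 with the Ishikawa libraries fitted alone and 15 with the length score as a covariate. In Ishikawa-S33Y and HEC265, 3 fell and 0 rose, TAGLN among them (-1.12 and -1.34). In SNGM 0 were called by limma, 1 by limma voom and 3 had an unadjusted p under 0.05. With the combination, 2 fell in SNGM, 4 in HEC265, 14 in Ishikawa and 9 in Ishikawa-S33Y, and 0 rose, the background being 18.4%, 19.5%, 22.8% and 42.0% of all genes. With 1 library left out the numbers were 1 to 5 in SNGM (5 without combination replicate 1), 2 to 3 in HEC265, 5 to 6 in Ishikawa-S33Y and 10 to 12 in Ishikawa, and with the Ishikawa libraries fitted alone 2 fell there. With paclitaxel in Ishikawa, 0 of the 15 were called by limma and 2 by limma voom. Unadjusted p-values of limma were under 0.05 for 9 of the 15 there, and for 1254 of all genes. The log2 difference with paclitaxel was above 0 for 0 of the 15 in Ishikawa (list median -0.35), 1 in Ishikawa-S33Y and 9 in each of SNGM and HEC265. Of 8 TGF-beta and SMAD targets, 1 fell with SM08502 in each of SNGM and HEC265, 1 rose in Ishikawa, and 1 rose and 2 fell in Ishikawa-S33Y.

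**Figure D5:**
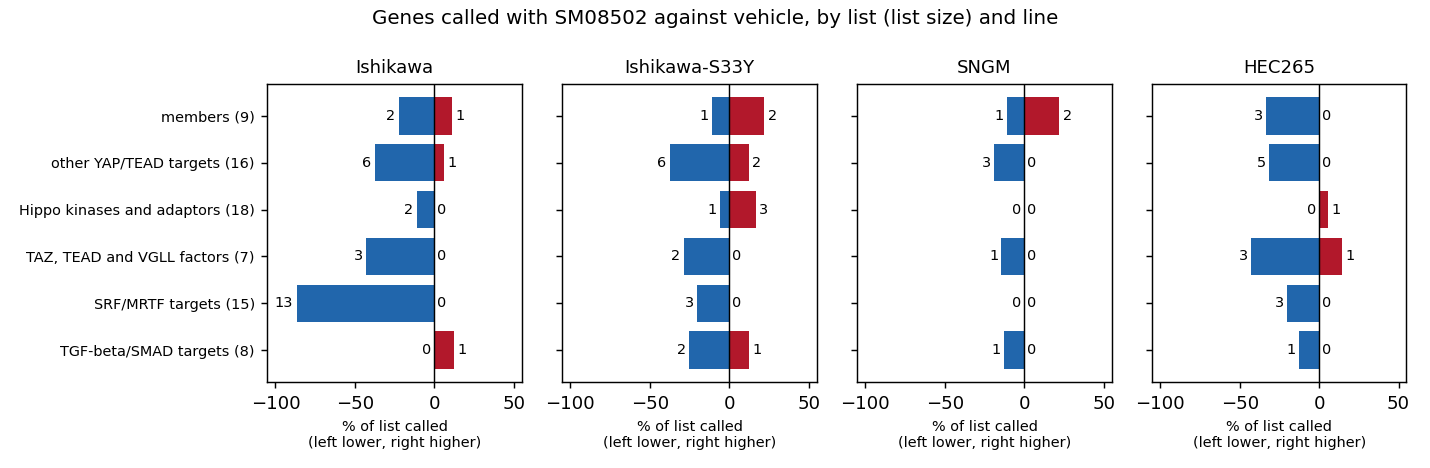
Share of each list called with SM08502 against vehicle (percent of the list, lower to the left, higher to the right, with counts), by line. The SRF and MRTF targets stand out in Ishikawa with 13 of 15 lower and 0 in SNGM.

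With the combination, of the 16 other YAP and TEAD targets 1 rose and 3 fell in SNGM (list median -0.24), 1 and 5 in HEC265 (-0.28), 1 and 8 in Ishikawa (-0.61), and 3 and 6 in Ishikawa-S33Y (-0.08). The background was 18.4%, 19.5%, 22.8% and 42.0% of all genes in that order. With 1 library left out the number lower was 1 to 3 in SNGM, 3 to 4 in HEC265, 3 to 8 in Ishikawa (3 without vehicle replicate 2) and 6 in Ishikawa-S33Y. IGFBP3 again fell in both Ishikawa lines (-1.37 and -1.75) and in SNGM (-0.55). GADD45A rose in Ishikawa-S33Y (1.14), HEC265 (0.63) and SNGM (0.46). With paclitaxel, 0 of these 16 targets were called by limma or limma voom in any line, the unadjusted p being under 0.05 for 4 in Ishikawa, 1 in SNGM and 0 in Ishikawa-S33Y and HEC265.

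The genes whose pattern was most like that of ANKRD1 were sought among 14408 genes with a mean log2(CPM + 1) of at least 1. Over the 32 libraries, after the mean of each line was subtracted, Pearson's r was 0.89 for TARS, 0.88 for TFAM, 0.86 for GOT1, 0.85 for CD55 and 0.85 for GOLPH3L. CTGF came 9th, at 0.84. Of the other genes, TEAD1 was at 0.32, YAP1 at 0.15, LATS2 at 0.10, AMOTL2 at -0.02, AJUBA at -0.19, CYR61 at -0.20 and AXL at -0.65. Over the 16 group means with the lines' levels kept, the highest were GPCPD1 (0.89), RWDD3 (0.88), RAP1A (0.86), CHTOP (0.86) and YOD1 (0.85). CTGF came 752nd there, at 0.63, and the rest of the 9 genes ran from -0.64 for AXL to -0.42 for TEAD1. The libraries of a line share its drug doses, and the vehicle and paclitaxel libraries of SNGM, on which ANKRD1 was chosen, are among those compared. Without them, over 28 libraries, TARS stayed the closest (0.92) and CTGF came 15th (0.88), and over 14 group means CTGF came 1096th (0.59). These coefficients describe the libraries and carry no test.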

How the data were processed

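RNA from 32 libraries (4 lines, 4 treatments, 2 replicates) was sequenced after ribosomal RNA depletion, per the labels' protocols. Per the submitters' processing notes, the build was GRCh38 and the tools were bcl2fastq, kallisto and STAR; their roles, versions and the annotation are not given in the sources used here. The authors deposited log10(CPM + 1) for 35238 genes, from which whole reads could be worked back for 100% of entries. A log CPM scale had been assumed in planning; as the values proved to be log10(CPM + 1), the test ran on log2(CPM + 1) computed from the CPM, a scale that understates changes of low genes.

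Genes above 1 CPM in at least 2 libraries were kept (17011; 4366 were at 0 in all). limma 3.58.1 (R 4.3.3) was fitted with 16 group means, an intensity trend and empirical Bayes moderation (16 residual and 4.90 prior degrees of freedom). Tests were two-sided, with Benjamini-Hochberg adjustment over all genes. Samples were grouped by the labels' titles. Replicates differed beyond counting error in every group (chi-square per degree of freedom 2.34 to 93.6), so none was treated as a repeat of another. The procedure was tested on simulated data. The splicing tables were not used here.

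The 9 genes, the lists and the tests were chosen with earlier results of these data known. Beside the 9, the text names up to 2 genes of a list with the largest called change each way per comparison, and the 5 genes most like ANKRD1 by each measure; a few further list genes were named after their values were seen. Promoter windows were searched for GGAATG and CATTCC.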

Additional observations from a re-analysis of the deposited data

Results flagged for a closer look

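A difference among the 4 lines in the response to a drug was found by limma's moderated F test for 3 of the 9 genes with SM08502 and for 7 with the combination. The shares of all genes so called were 12.4% and 27.1%, and the counts of the 9 genes moved with the processing, as given below. With SM08502 the adjusted p was 2.85e-04 for ANKRD1, where the change ran from -0.31 in HEC265 to 1.30 in Ishikawa-S33Y. It was 1.58e-05 for CTGF, with changes from -0.53 in HEC265 to 1.57 in Ishikawa-S33Y, and 0.0411 for AJUBA, with changes from -0.75 in Ishikawa to 0.09 in SNGM. With the combination the adjusted p was 2.24e-05 for ANKRD1 (-0.26 in HEC265 to 1.60 in Ishikawa-S33Y), 1.32e-06 for CTGF (-0.08 in HEC265 to 2.08 in SNGM) and 0.00250 for AJUBA (-0.86 in Ishikawa to 0.24 in SNGM). It was 0.00873 for AXL, which fell in every line, 0.0197 for TEAD1 (-0.56 in HEC265 to 0.67 in Ishikawa-S33Y), 0.0363 for AMOTL2 (-0.82 in Ishikawa to 0.36 in SNGM) and 0.0396 for CYR61 (-0.51 in Ishikawa to 0.18 in SNGM). For ANKRD1 both tests include the SNGM vehicle libraries on which that gene was chosen. Dose and RNA input differed with the line and cannot be told apart from it.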

How the results depend on the processing

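Alternatives were listed in advance for the 9 genes; counts for the other lists under the same settings, and the likeness to ANKRD1 without the SNGM vehicle and paclitaxel libraries, were added after seeing the data. Of 26 called changes against vehicle, none reversed in 364 alternatives and 31 alternatives ended a call; that of CTGF between the combination and SM08502 in SNGM was lost in 6 of 14. With each line fitted alone, the members called against vehicle were 0 in Ishikawa for SM08502 and for the combination, 6 and 8 in Ishikawa-S33Y and 7 and 5 in HEC265, and 0 in SNGM for the combination against SM08502. Median re-centring gave 5 (Ishikawa) and 5 (HEC265) with SM08502, 4 with the combination in HEC265, 0 for the combination against SM08502 in SNGM, which was also 0 with limma voom, and 5 for the SM08502 difference among lines. The length score as covariate gave 5 with SM08502 in Ishikawa and 5 in Ishikawa-S33Y, 2 with paclitaxel in Ishikawa, 5 with the combination in SNGM and 6 for the SM08502 difference among lines. It also reversed 5 line differences on vehicle, all against Ishikawa: CYR61 (-0.15), LATS2 (-0.41) and YAP1 (-0.19) in SNGM, and AMOTL2 (-0.057) and LATS2 (-0.43) in HEC265; none was then called, and the cause was not tested.

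With 1 library left out, the count with SM08502 was 3 to 6 in Ishikawa, 1 to 3 in SNGM and 1 in HEC265; with the combination 3 to 4 in Ishikawa; with paclitaxel 0 to 5 in Ishikawa; for the combination against SM08502 0 to 1 in Ishikawa-S33Y and 0 to 3 in SNGM; and for the differences among lines 2 to 5 with SM08502 and 4 to 7 with the combination, lowest without either vehicle library of Ishikawa-S33Y. The difference of ANKRD1 between the combination and SM08502 in SNGM was 0.38 to 0.82. A lone replicate is assumed to vary like the other groups.

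Replicate numbers did not pair the samples: the correlation of replicate differences across 8488 genes ran from -0.59 to 0.78 (SNGM), -0.54 to 0.85 (Ishikawa), -0.12 to 0.26 (HEC265) and -0.06 to 0.13 (Ishikawa-S33Y). With a replicate block no drug count of the 9 genes moved, and 8 in place of 7 were called between Ishikawa-S33Y and Ishikawa. Re-centring moved the median of all genes by -0.11 for the combination in HEC265 and by up to 0.22 between lines, quantile normalization by up to 0.27 between lines, and voom by 0.11 for the combination in SNGM. Depth limits the combination in SNGM, where 1 replicate held 1.61 M reads.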
